A study of Mus musculus with 6 samples.

Results

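Autophagy delivers cytoplasmic material to the lysosome, and the 39 genes described here encode its core machinery together with the lysosomal membrane proteins LAMP1 and LAMP2 and the transcription factors TFEB and TFE3. They were chosen by gene symbol, under a rule that uses no measured value, although earlier results of these data were known at the time. All 39 were found among the 53278 genes of the deposited table. The cells were type 2 innate lymphoid cells (ILC2s) sorted from the visceral adipose tissue (VAT) of C57BL/6 mice aged 8 weeks, with no genetic modification given in the labels. All mice had received 3 intraperitoneal injections of 1 µg IL-33, and all cultures contained IL-2 and IL-7, each at 10 ng/mL. The cells were then treated in vitro with 5 µg/mL DTA-1, an agonistic antibody to the costimulatory receptor GITR, or with the isotype control. The control libraries are titled isotype, whereas their column headers read PBS-GITR. The culture lasted 48 h according to the labels, although the study's text also gives a shorter time. There were 3 RNA-seq libraries in each group, each made from 10 ng of RNA.

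Autophagy starts when the ULK kinase complex and the class III PI3-kinase complex mark a membrane, which ATG9 vesicles and ATG2 lipid transfer then enlarge. Ubiquitin-like conjugation by ATG7, ATG3, ATG10 and the ATG12–ATG5–ATG16L1 complex attaches ATG8 proteins of the LC3 and GABARAP families to that membrane, and cargo receptors such as p62 hold the material to be degraded. The closed autophagosome fuses with the lysosome, whose genes TFEB and TFE3 activate, and in lymphocytes this route supports survival and metabolism. Transcript levels do not measure autophagic flux, which depends largely on protein modification and turnover.

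Total counts ranged from 34557215 to 35131329 in the isotype control libraries and from 30569351 to 32492849 in the DTA-1 libraries. A count of 0 would allow up to 3 counts, or 0.0854 to 0.0981 CPM (counts scaled to library size), a limit that covers counting error only. The library labelled DTA-1 replicate 1 (called DTA-1 replicate 1 from here on) stood apart from its group. The chi-square per degree of freedom between pairs of libraries, which is near 1 for counting noise alone, was 10.1 to 11.9 from this library to the isotype control libraries and 29 and 30.5 to DTA-1 replicates 2 and 3. It was 12 to 18.4 among the isotype control libraries and 11.9 between DTA-1 replicates 2 and 3. DTA-1 replicate 1 thus lay closer to the isotype control libraries than these lay to each other, and the cause was not tested. No library was relabelled or dropped, and results are also given with this one left out. The defining ILC2 genes were present, with summed levels of 12820 to 13770 CPM in isotype control and 13910 to 18110 with DTA-1. The largest part of this sum was Il5, a cytokine gene, at 5063 to 5493 CPM in isotype control. With DTA-1 it was at 5627, 9695 and 8899 CPM in replicates 1, 2 and 3. Log2 fold changes above 0 were those of Il5 (0.60), Areg (0.53), Il13 (0.36), Il2ra (0.30) and Rora (0.01). Those below 0 were Icos (−0.46), Kit (−0.22), Il1rl1 (−0.09), Gata3 (−0.08), Ptprc (−0.05), Klrg1 (−0.04), Il7r (−0.03) and Tnfrsf18 (−0.02). The smallest adjusted p of these genes was 0.627 by edgeR. With DTA-1 replicate 1 left out, log2 fold changes were 0.80 for Il5, 0.75 for Areg, 0.39 for Il2ra and −0.71 for Icos. Their adjusted p values by edgeR were 0.000115, 0.000163, 0.0122 and 0.00129 in that order. Those of the other ILC2 genes listed were above 0.05. Summed macrophage markers reached at most 12.3, mainly from Cd68 (at most 10.6) and Adgre1 (at most 3.77), with C1qb and Marco at 0. Summed T cell markers reached at most 5.63, mainly from Cd3e (2.34 to 3.72), with Cd8a at 0. Summed fibroblast markers were 2.82 to 9.38 CPM in isotype control and 0 to 3.98 with DTA-1, and Pdgfra and Fbn1 of this list were at 0 in all DTA-1 libraries and at most 1.92 in isotype control. Summed endothelial markers, nearly all from Pecam1, were 18.4 to 24.4 in isotype control and 10.6 to 18.3 with DTA-1. Of the same list, Cdh5 was at 0 in all libraries, and Kdr and Vwf were at most 0.16 and 0.03. The part of the fibroblast and endothelial markers in any result was not tested. The labels do not say that the libraries came from separate animals or cultures, so p-values measure only the spread between these libraries.

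The study asked which transcripts of ILC2s respond to GITR engagement, and DTA-1 was compared with isotype control by the quasi-likelihood test of edgeR across all genes. Levels are normalized counts, that is CPM after TMM scaling, and a gene was differentially expressed at an adjusted p under 0.05 with a change of at least 1.5-fold. All 39 members passed the filter on low counts, and the lowest count of any member in any library was 26. None of the 39 was differentially expressed, against 0% of the 14361 genes tested, and the smallest adjusted p among them was 0.627 by edgeR. With DTA-1 replicate 1 left out, still 0 of 39 members passed, against 0.744% of the genes then tested (1.7% with no fold limit), with a smallest adjusted p of 0.124 by edgeR. DESeq2 called 0 members, against 0.152% of the genes to which it gave an adjusted p, and its smallest adjusted p among members was 0.0806, for Atg16l2. In bulk RNA, fewer cells of a type and less RNA per cell cannot be told apart.

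The summed level of the set differed between the groups by less than the spread of the libraries. The summed normalized count of the 39 members was 3682, 3647 and 3574 for isotype control and 3614, 3674 and 3654 for DTA-1, here and below in the order of the replicate numbers. The means were 3634 ± 55.1 and 3647 ± 30.6 (SD, n = 3 each), and the ranges of the groups overlapped. The median log2 fold change was −0.01 over the members and −0.01 over all genes tested, and 18 of 39 members (46.2%) lay above 0, against 48.1% of all genes. Within single libraries, the median log2 ratio of the members to their isotype control mean ran from −0.04 to 0.03 in isotype control and from 0.0024 to 0.03 with DTA-1.

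The precision of these estimates limits how large an undetected difference could be. For 33 of the 39 members (84.6%) the 95% interval of the fold change lay within 1.5-fold in both directions, which held for 58.9% of all genes tested. The median standard error (SE) of the log2 fold change was 0.10 for the members and 0.14 for all genes, and the median level was 52.4 normalized counts for the members and 20.4 for all genes. The members were thus measured at higher levels than most genes. The median absolute log2 fold change was 0.06 for the members and 0.12 for all genes, and 30 members had one under 0.15. The 6 members whose interval reached beyond 1.5-fold were Optn, Atg16l2, Wipi1, Atg4c, Map1lc3a and Atg2b. With DTA-1 replicate 1 left out, 32 members (82.1%) had an interval within 1.5-fold, against 52.7% of all genes.

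**Figure D1:**
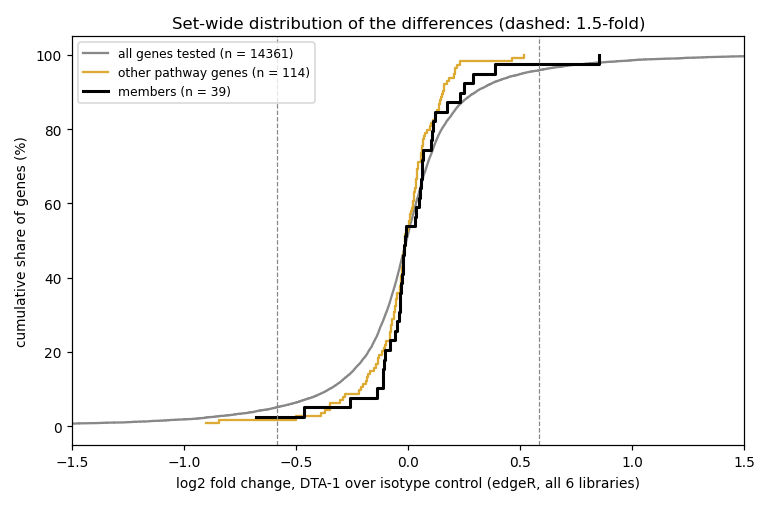
Cumulative share of genes (vertical axis, percent) by log2 fold change of DTA-1 over isotype control (horizontal axis) for all 14361 genes tested, the 114 other pathway genes tested and the 39 members, with dashed lines at 1.5-fold. The 3 curves cross 0 at nearly the same height, and the members' curve is the steeper one next to that of all genes.

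The genes of the set spanned a wide range of levels, compared here per kilobase of exon so that long and short genes can be set side by side. Exon length is the union of all annotated exons, which can exceed the length of the transcript made, so the ranks depend on it. Sqstm1, which encodes the cargo receptor p62, was highest, at 186 ± 9.47 normalized counts per kilobase in isotype control (SD, n = 3 for this and the following levels). Gabarap, an ATG8 gene, followed at 142 ± 5.35, and Lamp1 at 136 ± 4.09. The difference between these neighbours was a little larger than the SD of either, and was not tested. Gabarapl2 (67.1 ± 5.62), Atg3 (43.6 ± 2.09) and Becn1 (34.7 ± 1.18 normalized counts per kilobase) came next. At the other end stood Atg2b (1.75 ± 0.217), Atg4c (1.31 ± 0.32), Optn (0.698 ± 0.107) and Wipi1 (0.468 ± 0.205). The median coefficient of variation among the isotype control libraries was 9.2%, and the highest was 43.9%, for Wipi1.

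**Figure D2:**
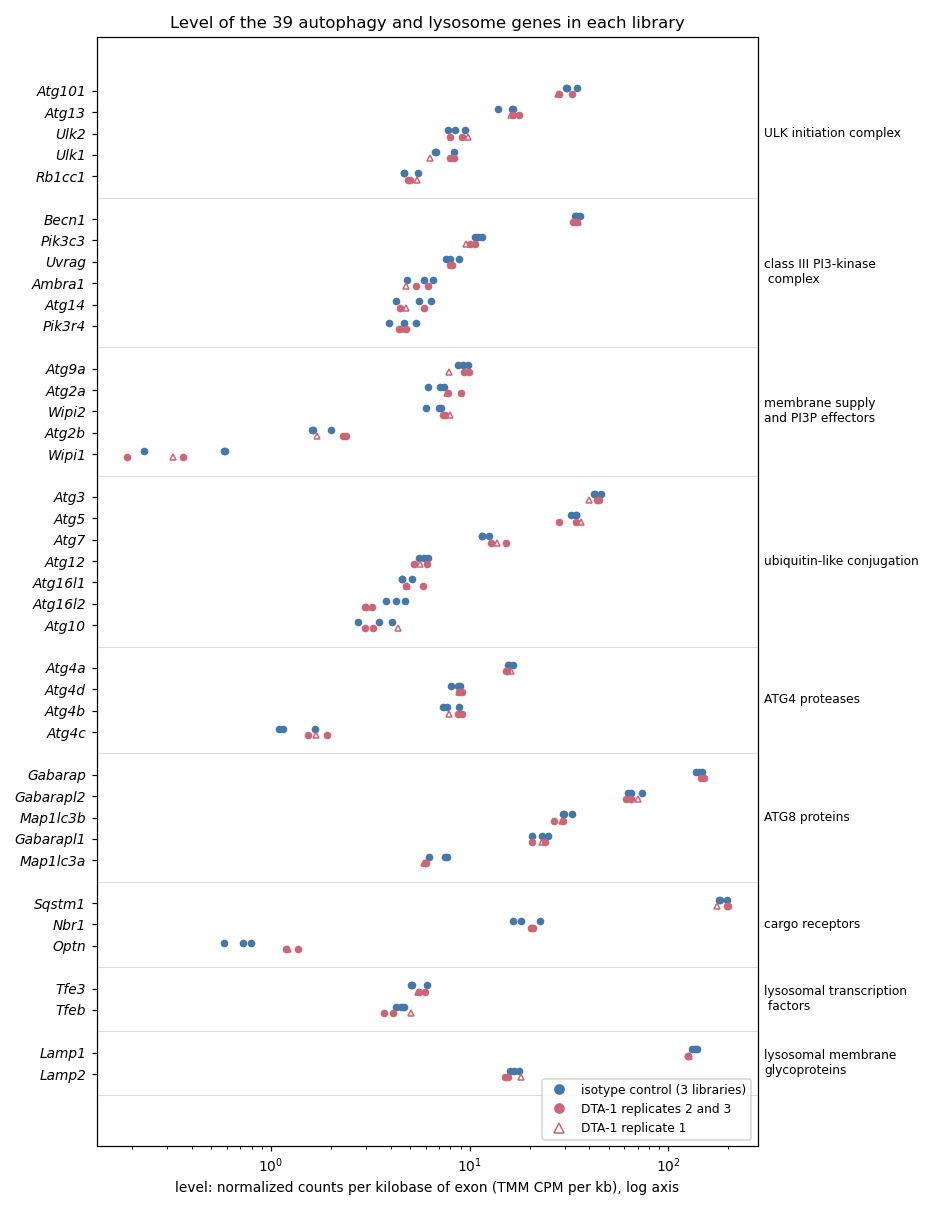
Normalized counts per kilobase of exon (horizontal log axis) of each of the 39 members, grouped by role, with 1 point for each library (blue, isotype control; red, DTA-1; open triangle, DTA-1 replicate 1). The points of both groups lie nearly on each other for most members, from Sqstm1 at 186 to Wipi1 at 0.468 in the isotype control mean.

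At an unadjusted p under 0.05 by edgeR, 4 of 39 members (10.3%) were called, against a background of 7.22% of all genes. Optn, Atg7 and Atg2a were higher with DTA-1 (7.69% of members, background 4.11%) and Atg16l2 was lower (2.56%, background 3.11%). In 9 members (23.1%) the values of the groups did not overlap, against 11.3% of all genes. The higher ones were Optn, Atg2a, Atg7 and Wipi2 (10.3%, background 5.26%). The lower ones were Atg16l2, Lamp1, Map1lc3a, Map1lc3b and Pik3c3 (12.8%, background 6.03%). With DTA-1 replicate 1 left out, 5 members had an unadjusted p under 0.05 (12.8%, background 14%), Atg2b being the added one, and 13 did not overlap (33.3%, background 31.3%).

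**Figure D3:**
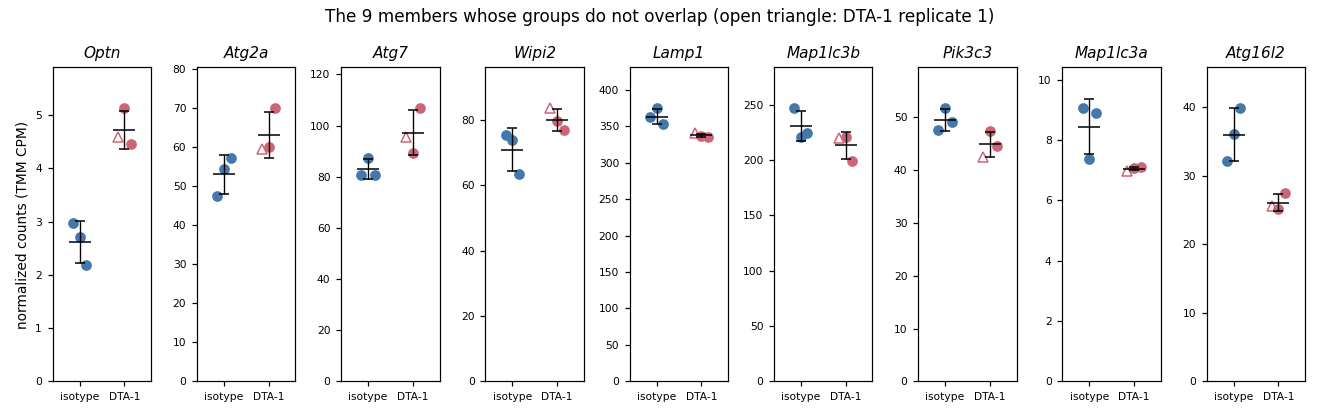
Normalized counts (vertical axes from 0) of the 9 members whose groups did not overlap, in each library of isotype control (blue) and DTA-1 (red; open triangle, replicate 1), with the mean and SD in black. Optn stands 1.80-fold higher with DTA-1, and the other 8 members differ by smaller ratios.

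Among the 5 genes of the ULK initiation complex, which starts autophagosome formation, 4 had a log2 fold change above 0 and 1 below, with a median of 0.05. Atg101, a subunit that stabilizes ATG13, was the highest of them per length. It had 55.5, 49.1 and 48.6 normalized counts in isotype control and 44.6, 52.3 and 44.8 with DTA-1, and the groups overlapped (log2 fold change −0.11, SE 0.10). The kinase genes Ulk1 and Ulk2 had log2 fold changes of 0.05 and 0.06, the scaffold Rb1cc1 (FIP200) 0.05 and Atg13 0.10. All 5 intervals lay within 1.5-fold.

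All 6 genes of the class III PI3-kinase complex, which makes the lipid PI3P, had log2 fold changes below 0 with all 6 libraries, with a median of −0.05. Leaving out 1 library turned the sign of 5 of them, Pik3c3 being the exception. Becn1, the scaffold of the complex, was the highest per length. Its normalized counts were 239, 241 and 254 in isotype control and 249, 235 and 245 with DTA-1, with a log2 fold change of −0.01 (SE 0.06). Pik3c3, the catalytic subunit, was the gene of this complex whose groups did not overlap. It had 47.6, 51.7 and 49.1 normalized counts in isotype control and 42.6, 47.4 and 44.6 with DTA-1. Each DTA-1 library lay below each isotype control library by a small margin, with a log2 fold change of −0.14 (SE 0.09, adjusted p = 0.754 by edgeR). The regulatory subunits and partners Pik3r4, Atg14, Uvrag and Ambra1 had log2 fold changes of −0.02, −0.10, −0.01 and −0.08. In isotype control their levels ranged from 23.4 normalized counts for Atg14 to 73.7 for Uvrag.

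Of the 5 genes for membrane supply and PI3P binding, 3 were above 0 and 2 below, with a median log2 fold change of 0.17. Atg2a (chr19:6241668-6262335, GRCm38), which encodes a lipid transfer protein, had 47.6, 54.4 and 57.2 normalized counts in isotype control and 59.5, 60.0 and 69.9 with DTA-1. All DTA-1 libraries were above all isotype control libraries. The means were 53.1 ± 4.96 and 63.1 ± 5.89 (SD, n = 3 each), with a log2 fold change of 0.25 (SE 0.10, 95% interval 0.03 to 0.47), which did not pass the adjusted threshold (adjusted p = 0.657 by edgeR, 0.264 with DTA-1 replicate 1 left out). Its paralog Atg2b had 21.7, 22.0 and 26.9 normalized counts in isotype control and 23.0, 32.2 and 31.0 with DTA-1. DTA-1 replicate 1 lay within the isotype control range, the other DTA-1 libraries above it. The ratio of Atg2b to Atg2a was 0.443 ± 0.0346 in isotype control and 0.455 ± 0.0759 with DTA-1 (SD, n = 3 each), with overlapping groups. The log2 fold change of Atg2b was 0.29 with all libraries and 0.42 with DTA-1 replicate 1 left out (adjusted p = 0.165 by edgeR). Gskip overlaps Atg2b on the opposite strand and had more counts (mean 2232.9 against 864.6). Its own log2 fold change was −0.0094 (adjusted p = 0.989 by edgeR). Wipi2, a PI3P-binding protein that recruits ATG16L1, had 75.3, 73.9 and 63.4 normalized counts in isotype control and 83.5, 79.5 and 77.0 with DTA-1, a log2 fold change of 0.17 without overlap (adjusted p = 0.717 by edgeR). With total counts in place of TMM, the groups of Wipi2 overlapped. Wipi1 rested on 36, 90 and 92 counts in isotype control and 44, 26 and 51 with DTA-1. Its log2 fold change of −0.68 had a 95% interval from −1.65 to 0.29, the widest of the set. Atg9a, the transmembrane carrier of the vesicles and the highest of this role per length, had 50.6, 56.7 and 53.3 normalized counts in isotype control and 45.2, 57.2 and 54.3 with DTA-1 (log2 fold change −0.04).

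The conjugation genes held both directions. Atg7 (chr6:114643097-114860614), the E1-like enzyme that activates ATG8 proteins and ATG12, had 80.6, 87.4 and 80.6 normalized counts in isotype control and 95.7, 89.2 and 107 with DTA-1. All DTA-1 libraries were above all isotype control libraries, and DTA-1 replicate 2 was the closest to the isotype control range. With total counts in place of TMM, the groups of Atg7 overlapped. The log2 fold change of Atg7 was 0.23 (SE 0.08, 95% interval 0.05 to 0.41), with an unadjusted p of 0.0184 and an adjusted p of 0.632 by edgeR. Atg16l2 (chr7:101263034-101302251), a paralog of the ATG5-binding scaffold ATG16L1, had 32.1, 36.1 and 39.9 normalized counts in isotype control and 25.7, 25.2 and 27.5 with DTA-1. Its means were 36.0 ± 3.87 and 26.1 ± 1.21 (SD, n = 3 each), and all DTA-1 libraries were below all isotype control libraries. The log2 fold change of Atg16l2 was −0.46 (SE 0.11, 95% interval −0.71 to −0.22), and its unadjusted p of 0.00149 was the smallest of the set. Its adjusted p was 0.627 by edgeR and 0.0806 to 0.997 over the alternatives, with a log2 fold change of −0.54 to −0.39. Fchsd2 overlaps Atg16l2 on the opposite strand, and its own log2 fold change was 0.07 (adjusted p = 0.948 by edgeR).

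Atg3, the E2-like enzyme for ATG8 proteins, was the highest conjugation gene per length, with 134, 145 and 133 normalized counts in isotype control and 126, 140 and 138 with DTA-1. Its groups overlapped (log2 fold change −0.03, SE 0.07). Atg5, Atg10, Atg12 and Atg16l1 had log2 fold changes of −0.02, 0.04, −0.06 and 0.12. Set against its paralog, Atg16l2 made up 45.4%, 45.4% and 50.8% of the summed Atg16l1 and Atg16l2 level per kilobase in isotype control and 38.6%, 38.4% and 35.7% with DTA-1. The means were 47.2% ± 3.13 and 37.6% ± 1.6 (SD, n = 3 each). Each DTA-1 library thus held a smaller share of Atg16l2 than each isotype control library. This proportion, like the others between paired members, was chosen after the values were seen and is given without a test.

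The ATG4 proteases, which trim ATG8 proteins before conjugation and release them afterwards, had 3 log2 fold changes above 0 and 1 below. Atg4a was the highest per length, with 42.2, 41.3 and 44.1 normalized counts in isotype control and 43.2, 41.2 and 40.7 with DTA-1 (log2 fold change −0.03, SE 0.09). Its groups overlapped. Atg4b, which acts on the LC3 proteins, had a log2 fold change of 0.10 and Atg4d one of 0.06. Atg4c was at a low level, with 3.67, 5.62 and 3.86 normalized counts in isotype control and 5.66, 6.41 and 5.15 with DTA-1. Its log2 fold change was 0.39, with a 95% interval from −0.13 to 0.91.

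The ATG8 genes encode the proteins that coat the autophagosome. Gabarap, the highest per length, had 272, 252 and 264 normalized counts in isotype control and 275, 279 and 270 with DTA-1. The groups overlapped, with a log2 fold change of 0.06 (SE 0.06). Map1lc3b, which encodes the LC3B protein widely used to follow autophagosomes, had 247, 221.0 and 224 normalized counts in isotype control and 219.9, 220.6 and 199 with DTA-1. Its groups were separated by less than 1 normalized count, and the log2 fold change was −0.11 (SE 0.07, adjusted p = 0.752 by edgeR). Reads of Map1lc3b may be shared with Gm20388, a long gene model on the same strand that spans it and had a log2 fold change of −0.18 (adjusted p = 0.738 by edgeR). Map1lc3a had 9.04, 7.39 and 8.90 normalized counts in isotype control and 6.99, 7.08 and 7.09 with DTA-1, with no overlap (log2 fold change −0.26, SE 0.17, adjusted p = 0.772 by edgeR). Gabarapl1 and Gabarapl2 had log2 fold changes of −0.02 and −0.04.

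Within each library, the ratio of Gabarap to Map1lc3b normalized counts was 1.10, 1.14 and 1.18 in isotype control and 1.25, 1.27 and 1.36 with DTA-1. The DTA-1 libraries were all above the isotype control libraries. The 3 genes of the GABARAP subfamily made up 86.0% ± 0.185 of the summed ATG8 level per kilobase in isotype control and 87.3% ± 0.335 with DTA-1 (SD, n = 3 each). In both groups the GABARAP genes therefore made up most of the summed level per kilobase, and the difference between the groups was small beside that share. The share depends on the exon length used, 7517 bases for Map1lc3b and 1844 for Gabarap. Without division by length, the isotype control means were 263 for Gabarap, 156 for Gabarapl2 and 45.9 for Gabarapl1. They were 231 for Map1lc3b and 8.44 for Map1lc3a.

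The 3 cargo receptor genes all had log2 fold changes above 0, where 48.1% of all genes tested lay. Of 10 other cargo receptor and mitophagy genes measured beside the members, 5 were above 0 and 5 below. Sqstm1 (chr11:50199366-50210827), whose protein p62 links ubiquitin to LC3, had 662, 612 and 604 normalized counts in isotype control and 591, 660 and 665 with DTA-1. The lowest and the highest value were both from DTA-1 libraries. Its log2 fold change was 0.03, with a 95% interval from −0.12 to 0.18, and it was 0.08 with DTA-1 replicate 1 left out. With total counts in place of TMM it was −0.01. Nbr1, a related receptor, had a log2 fold change of 0.11 (SE 0.10).

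Optn (chr2:5020642-5064051) encodes optineurin, a ubiquitin-binding receptor that also acts in NF-κB and interferon signalling. Its raw counts were 105, 95 and 77 in isotype control and 142, 160 and 142 with DTA-1. As normalized counts these were 2.97, 2.71 and 2.18 in isotype control and 4.59, 5.13 and 4.46 with DTA-1. All DTA-1 libraries were above all isotype control libraries, and DTA-1 replicate 1 lay among the other DTA-1 libraries. The means were 2.62 ± 0.40 and 4.72 ± 0.354 normalized counts (SD, n = 3 each), and the fitted difference was 1.80-fold. The log2 fold change of Optn was 0.85 (SE 0.24, 95% interval 0.31 to 1.39), the highest of the set, with an unadjusted p of 0.00523 and an adjusted p of 0.627 by edgeR. With DTA-1 replicate 1 left out it was 0.87 (adjusted p = 0.179 by edgeR), and over the alternatives the adjusted p ran from 0.179 to 0.999. Even with DTA-1, Optn stayed far below Sqstm1. The ratio of their normalized counts was 0.00418 ± 0.000486 in isotype control and 0.00741 ± 0.000618 with DTA-1 (SD, n = 3 each).

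**Figure D4:**
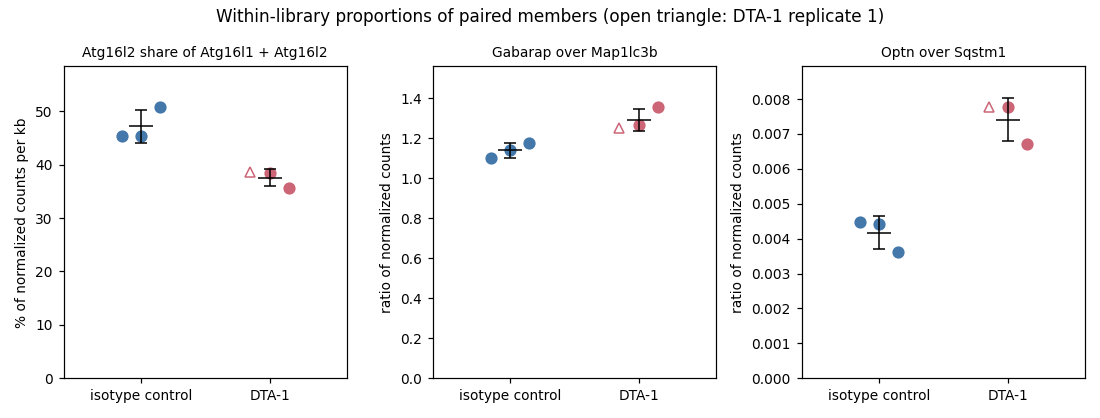
Proportions of paired members within each library (vertical axes from 0) for isotype control (blue) and DTA-1 (red; open triangle, replicate 1), with the mean and SD in black. The share of Atg16l2 was 35.7% to 38.6% with DTA-1 against 45.4% to 50.8% in isotype control, while the ratios of Gabarap to Map1lc3b and of Optn to Sqstm1 were higher in every DTA-1 library.

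The transcription factors of the set, Tfeb and Tfe3, drive lysosomal and autophagy genes when they enter the nucleus. Tfe3 was the higher per length, with 47.6, 47.0 and 56.4 normalized counts in isotype control and 50.7, 51.4 and 55.2 with DTA-1 (log2 fold change 0.06, SE 0.10). Tfeb had a log2 fold change of −0.05 (SE 0.13), and −0.19 with DTA-1 replicate 1 left out (adjusted p = 0.543 by edgeR). The groups overlapped for both genes with all libraries.

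Lamp1 (chr8:13159161-13175338) and Lamp2 encode the main glycoproteins of the lysosomal membrane. Lamp1 had 363, 374 and 352 normalized counts in isotype control and 340, 336 and 335 with DTA-1. Every DTA-1 library lay below every isotype control library. The means were 363 ± 10.9 and 337 ± 2.51 (SD, n = 3 each), and the log2 fold change of −0.11 (SE 0.06, 95% interval −0.23 to 0.02) did not pass the test (adjusted p = 0.733 by edgeR, 0.41 with DTA-1 replicate 1 left out). Lamp2 had a log2 fold change of −0.04 with overlapping groups.

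**Figure D5:**
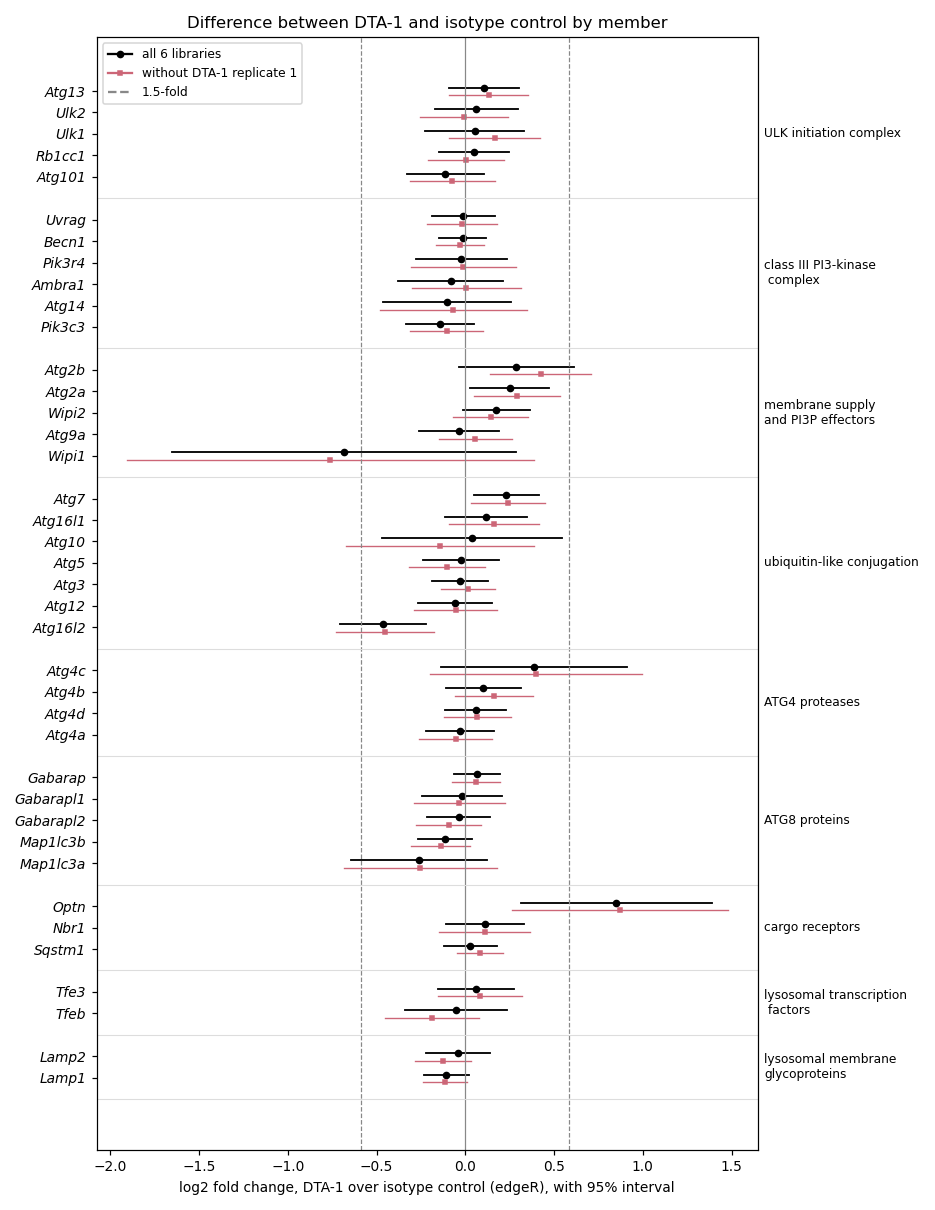
Log2 fold change of DTA-1 over isotype control (horizontal axis) with its 95% interval for each of the 39 members by role, with all 6 libraries (black) and without DTA-1 replicate 1 (red), and dashed lines at 1.5-fold. The intervals of 33 members lie between the dashed lines, and Optn and Wipi1 reach farthest beyond them.

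TFEB and TFE3 bind the E-box CACGTG, and the promoters of the members were searched for it in RefSeq windows from 250 bases before to 50 bases after each start. Of the 39 members, 33 matched by symbol (all but Rb1cc1, Map1lc3a, Atg16l1, Atg12, Pik3c3 and Becn1), with 39 promoters in all. CACGTG, which reads the same on both strands, was in 5 of these 39 promoters (12.8%) and in 7.15% of all 32851 promoters. The extended form GTCACGTG, which overlaps the E-box and was searched on both strands, was in 4 (10.3%) and in 2.25% of all promoters. The stretches that hold the E-box are printed here, because they are the letters these factors of the set are known to bind, with the E-box in capitals, 5′ to 3′ on the gene's strand, in GRCm38.p6. The stretch of Atg14 overlaps one of its exons, that of Atg7 lies within an intron before an internal start, and those of Atg3, Atg5 and Lamp1 lie before the gene.
Lamp1 (chr8:13159080-13159160, plus strand): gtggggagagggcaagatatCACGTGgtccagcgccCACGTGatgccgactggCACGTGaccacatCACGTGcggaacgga
Atg3 (chr16:45158715-45158783, plus strand): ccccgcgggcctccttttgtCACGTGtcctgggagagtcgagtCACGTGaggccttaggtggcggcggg
Atg5 (chr10:44268305-44268338, plus strand): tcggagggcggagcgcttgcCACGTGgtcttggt
Atg7 (chr6:114670944-114670989, plus strand): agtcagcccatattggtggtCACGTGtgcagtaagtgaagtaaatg
Atg14 (chr14:47568418-47568447, minus strand): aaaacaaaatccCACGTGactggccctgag

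The Lamp1 promoter held 4 E-boxes and the Atg3 promoter 2. The log2 fold changes of these genes were −0.11 for Lamp1, −0.03 for Atg3, −0.02 for Atg5, 0.23 for Atg7 and −0.10 for Atg14, so that genes with the E-box lay on both sides of 0. None passed the adjusted threshold.

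Beyond the 39 members, 7 lists with 115 other genes of the pathway were measured, and 114 were tested, since Tfec did not pass the filter on low counts. By edgeR, none was differentially expressed with all libraries or with DTA-1 replicate 1 left out. Their median log2 fold change was −0.01, and the intervals of 100 (87.7%) lay within 1.5-fold, a share close to that of the members. At an unadjusted p under 0.05 there were 13 (11.4%, background 7.22%), of which 4 were higher (3.51%, background 4.11%) and 9 lower (7.89%, background 3.11%). With DTA-1 replicate 1 left out there were 24 (21.1%, background 14%), of which 11 were higher (9.65%, background 7.5%) and 13 lower (11.4%, background 6.53%).

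Of the 34 lysosomal hydrolases and activators, 6 had an unadjusted p under 0.05 by edgeR with all libraries, against a background of 7.22% of all genes. Of these 6, 5 were lower (background 3.11%) and 1 was higher (background 4.11%). Legumain (Lgmn), an asparaginyl endopeptidase, had 31.0, 34.6 and 33.1 normalized counts in isotype control and 25.3, 25.9 and 24.3 with DTA-1. Its groups did not overlap, with a log2 fold change of −0.39 (SE 0.10, adjusted p = 0.627 by edgeR, 0.134 with DTA-1 replicate 1 left out). Cathepsin H (Ctsh) had 70.2, 68.9 and 62.5 normalized counts in isotype control and 57.8, 49.0 and 51.3 with DTA-1. It too was lower without overlap, with a log2 fold change of −0.35 (SE 0.09, adjusted p = 0.627 by edgeR, 0.0546 with it left out). The median log2 fold change of the hydrolases was −0.01.

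Among the other lysosomal membrane genes, Laptm4b had a log2 fold change of −0.35 and the cystine transporter Ctns one of 0.46, which was 0.28 with DTA-1 replicate 1 left out (adjusted p = 0.564 by edgeR). The upstream regulators Zkscan3, a repressor of autophagy genes, and Flcn, which acts on the Rag GTPases that hold TFEB in the cytoplasm, had log2 fold changes of −0.28 and −0.22, both without overlap (adjusted p = 0.655 for each by edgeR). The mitophagy receptor gene Bnip3 had 163, 170 and 165 normalized counts in isotype control and 173, 219 and 192 with DTA-1, a log2 fold change of 0.23 (adjusted p = 0.632 by edgeR, 0.0718 with DTA-1 replicate 1 left out). Of the 7 lists, the 16 V-ATPase subunits, which acidify the lysosome, lay closest together, with log2 fold changes from −0.08 to 0.16. The fusion gene Epg5 had a log2 fold change of −0.50, with a 95% interval from −0.999 to −0.0036, and was at −0.32 with DTA-1 replicate 1 left out (adjusted p = 0.565 by edgeR). Of the other formation genes, Tmem41b was at 0.16 and Wdr45 at −0.20, or −0.31 with that library left out.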

How the data were processed

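RNA-seq was performed on 3 isotype control and 3 DTA-1 libraries. The authors deposited unnormalized expected counts, which are estimates and need not be whole, of which 79.7% were whole numbers (tolerance 1e-06). The submitters' processing notes name bcl2fastq 2.17.1.14, STAR 2.5.3a, Partek and mm10. The annotation release and use of strand are not given in the sources used here. GENCODE mouse release 21 holds 49721 of the symbols, 47741 with identical start and end, and 0 columns were left out. Of the 39 members, 19 overlap another annotated gene, so some of their reads may belong to it, and Atg4a has a near copy in the table, Atg4a-ps.

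Counts were rounded, filtered by filterByExpr (14361 genes kept), scaled by TMM (factors 0.969 to 1.02) and tested with edgeR 4.0.16 in R 4.3.3, with robust quasi-likelihood F tests, no covariate and Benjamini-Hochberg adjustment over all genes. The common dispersion was 0.0256. Each standard error was derived from the F statistic, and the intervals are 95% intervals. Levels per kilobase use the union of GENCODE exons. An exact permutation test of 3 libraries against 3 cannot pass 0.05, so none was run on single genes. In data simulated with a 2-fold change in 200 of 14361 genes, 159 (79.5%) were recovered with 5 false calls. The simulation gave every gene the common dispersion and had no library that stood apart from its group. It checks the code and does not give the power of the comparison in these data. Alternatives were DESeq2 1.42.0 (Wald test, or size factors alone), total counts, limma-trend 3.58.1 (prior count 2), a minimum of 1 count in total or of 10 counts in every library as the filter, no fold limit, the replicate number as a block, and each library left out. Tables and plots used Python 3.11.15 with pandas 2.3.3, numpy 2.4.6, scipy 1.17.1 and matplotlib 3.10.9.

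The members and lists were chosen with earlier results of these data known. Values in all libraries are given for members with an unadjusted p under 0.05 or groups that did not overlap, and for the highest member per length of each role. Of each other list, at most 2 genes, those with the smallest unadjusted p, are named. Values of Atg2b, Atg4c and Wipi1 were added after they were seen. Sequences are from RefSeq.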

Additional observations from a re-analysis of the deposited data

How the results depend on the processing

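The count of differentially expressed members was 0 under every alternative, as was that of the other pathway genes. Over all genes the count was 0 with edgeR, 25 with the Wald test of DESeq2, 2 with no filter, and 0 to 111 when 1 library was left out, the 111 being without DTA-1 replicate 1. Members at an unadjusted p under 0.05 numbered 4, and 2 to 6 when 1 library was left out, the 2 being without DTA-1 replicate 3. Members without overlap numbered 9, and 11 to 13 when 1 library was left out, since fewer libraries overlap less. With total counts they numbered 7, as Atg7 and Wipi2 then overlapped. The median log2 fold change of the members was −0.01 and ran from −0.0077 to 0.01 with 1 library left out. With total counts it was −0.0496, where that of all genes was −0.0443. Between libraries of the same replicate number, the deviations from the group means were nearly uncorrelated (−0.0069, −0.0028 and 0.0152). With 3 libraries in each group this cannot settle whether the numbers pair the libraries, and the labels do not say. With the replicate number as a block 1 gene of all, 0 members and 4 members at an unadjusted p were called, with a smallest adjusted p of 0.605 by edgeR. Leaving out 1 library reversed the sign of 16 members, with log2 fold changes over these fits of −0.0185 to 0.17 for Ulk1, −0.01 to 0.14 for Ulk2, −0.13 to 0.0908 for Pik3r4, −0.0317 to 0.0157 for Becn1, −0.24 to 0.033 for Atg14, −0.0596 to 0.0559 for Uvrag, −0.19 to 0.0187 for Ambra1, −0.10 to 0.0573 for Atg9a, −0.0568 to 0.0166 for Atg3, −0.10 to 0.0762 for Atg5, −0.14 to 0.17 for Atg10, −0.0887 to 0.051 for Gabarapl1, −0.0941 to 0.036 for Gabarapl2, −0.0011 to 0.0813 for Sqstm1, −0.19 to 0.0485 for Tfeb and −0.13 to 0.0078 for Lamp2. Total counts reversed Sqstm1, at −0.0088. The cause of these changes was not tested. Wipi1, Optn, Atg4c and Atg10 had the lowest mean levels of the members in isotype control and the widest intervals.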
